A study of Mus musculus with 20 samples.

Results

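The 345 regions described here are 100-bp tiles of the mouse genome that were methylated in oocytes and lay lower in the maternal pronucleus of WT zygotes. They were chosen by measured values. A tile was kept when it stood at 75% or more in both oocyte libraries and at 60% or less in both libraries of mock-treated WT maternal pronuclei. Of 72072 autosomal tiles measured in all 10 maternal libraries, 8152 passed the oocyte limit, and the 345 members made up 4.23% of those. The other 7807 oocyte-methylated tiles serve for comparison throughout. The rule fixes the low WT level, so the questions asked are what the same tiles showed in the 6 maternal libraries that did not choose them, in the paternal libraries, and in the tiles around them.

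Cytosine methylation at CpG dinucleotides is laid down in growing oocytes over transcribed gene bodies and some CpG islands, and in sperm over most of the genome. After fertilisation both parental genomes lose methylation before the embryo implants. Methylation is lost passively when replication makes a daughter strand that the maintenance enzyme DNMT1 does not copy, and it can be oxidised by Tet3, a dioxygenase stored in the oocyte. The maternal chromosomes are known to be shielded in part from Tet3 by the oocyte protein DPPA3.

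Methylation was read by reduced representation bisulfite sequencing, in which the enzyme MspI cuts CpG-rich fragments and bisulfite converts unmethylated cytosine. Each pronuclear library came from hand-isolated pronuclei, typically about 20, amplified with 21 PCR cycles. The 20 libraries form 10 groups of 2, and nothing in the labels says that replicates came from separate animals, so the spread between them may be technical. CKO females carried Zp3-Cre, which is active in growing oocytes, with 1 floxed and 1 null Tet3 allele (f/-). WT females carried both floxed alleles (f/f), and the labels name no Cre for them. Females were 7 to 10 weeks old, and all zygotes were made with sperm of adult C57BL/6J males, for which the labels name no altered allele. The loss of Tet3 in CKO is thus that of the oocyte's own store. CKO-Mat-Aphi and WT-Mat-Aphi are maternal pronuclei of zygotes held in 3 µg/ml aphidicolin, an inhibitor of replicative DNA polymerases, from 5 hours after fertilisation. CKO-Mat and WT-Mat are the mock groups without the drug. All pronuclei were taken at 12 hours and frozen at 13 hours. The matching paternal groups (CKO-Pat-Aphi, CKO-Pat, WT-Pat-Aphi, WT-Pat), Sperm and Oocyte complete the set. Bisulfite reads 5-hydroxymethylcytosine as methylated, so its formation by Tet3 is invisible in these values.

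Libraries held between 22431861 and 68056783 calls. Members were read somewhat less deeply than the other oocyte-methylated tiles, with a median of 132 against 166 calls per tile and library. Calls in a tile share reads and PCR copies, so they are not independent molecules. At 10900 tiles methylated in sperm only, the maternal libraries should be near the Oocyte level of 3.22% and 3.18%. The means there were 8.80% and 4.71% in CKO-Mat-Aphi, 8.52% and 10.1% in CKO-Mat, 4.32% and 4.5% in WT-Mat-Aphi, and 3.04% and 3.39% in WT-Mat. Both CKO-Mat libraries and replicate 1 of CKO-Mat-Aphi thus stood apart. The first CKO-Mat library also had the highest share of calls on chromosome Y among maternal libraries, 0.00297%. Replicate 1 of CKO-Mat-Aphi had 0.00163%. The second CKO-Mat library, the highest of the maternal libraries at sperm-only tiles, had a chromosome Y share of 0.000296%. That was below the 0.000692% of the first WT-Mat library, so the 2 measures did not rank the libraries alike. Whether paternal material is in the libraries that stood apart was not tested. The main member means that rest on them are given per library, and several later values as group means only. The files of the mock pronuclei list chromosomes in another order than those of the aphidicolin groups and gametes, so a difference in handling cannot be told apart from the drug.

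The values that chose the members are given only as a description. Members averaged 33.4% and 36.5% in WT-Mat, against 91.6% and 92.2% in Oocyte. The other oocyte-methylated tiles averaged 85.2% ± 2.01 in WT-Mat and 97.0% ± 0.00696 in Oocyte (SD, n = 2 each). Members thus also lay lower in oocytes, with a difference from the others of -5.12 points, within the range the rule allows. The quasi-binomial model described below called 7 members lower in WT-Mat than in Oocyte and 0 higher, where it called 0.018% of all tiles lower and 0.00139% higher, and nothing is read from this. The WT-Mat limit has members and non-members on either side of it with near equal values. The tile at chr4:135794501-135794600 (mm9) is just inside, with 60% and 53.9% in WT-Mat, and chr7:31573001-31573100 is inside with 52.3% and 60%. Just outside are chr10:79611101-79611200, with 60.04% and 52.2%, and chr7:66031201-66031300, with 44.0% and 60.08%. At the oocyte limit, chr1:91475501-91475600 is inside with 87.5% and 75.0% in Oocyte and chr2:151632301-151632400 with 75.0% and 86.0%. Outside it are chr19:4143301-4143400, with 79.7% and 74.7%, and chr15:39999701-39999800, with 93.1% and 74.6%.

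In the 6 libraries outside the rule, members lay below the other oocyte-methylated tiles in every one, with and without replication. Of the 3 groups, mock-treated CKO pronuclei were lowest, and the aphidicolin pronuclei of both genotypes were higher. Member means were 73.9% and 76.3% in CKO-Mat-Aphi, 57.3% and 59.8% in CKO-Mat, and 77.5% and 79.9% in WT-Mat-Aphi. The other tiles averaged 95.1% ± 1.43 in CKO-Mat-Aphi, 83.1% ± 1.35 in CKO-Mat and 96.0% ± 0.0468 in WT-Mat-Aphi (SD, n = 2 each). Members minus others was -20.0 points in CKO-Mat-Aphi, -24.5 in CKO-Mat and -17.2 in WT-Mat-Aphi. Single tiles of the 2 sets overlapped widely, with 44.3% to 55.7% of members at 100% in the aphidicolin libraries. The library means of members and others did not overlap in any group, and the gap in means was several times the spread between replicates. No p-value is given for it, since the members were picked by their level.

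**Figure D1:**
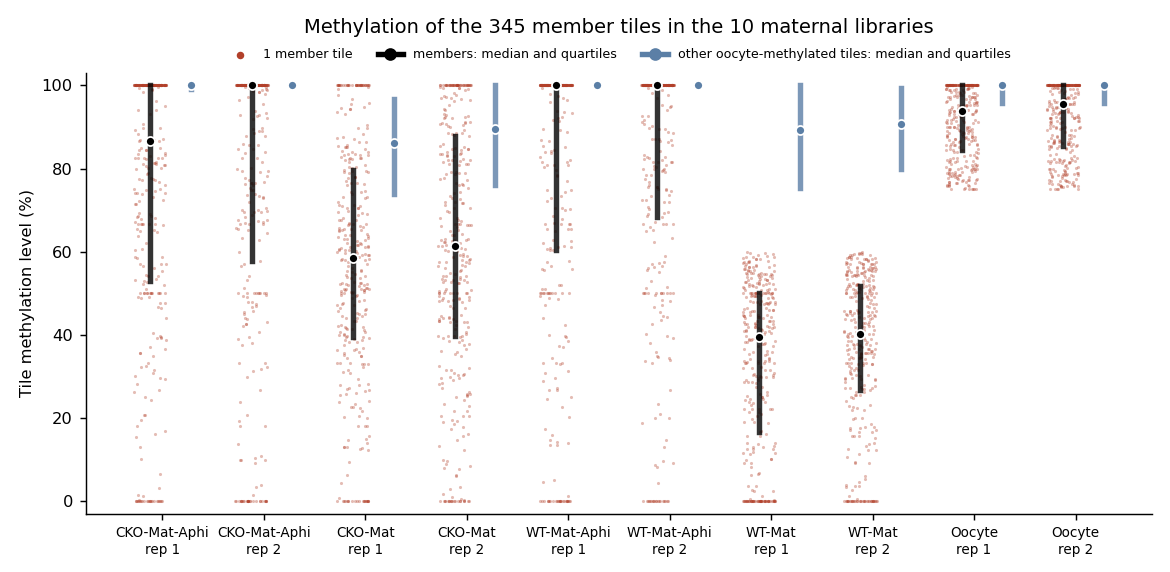
Methylation level (%) of each member tile (red points) in the 10 maternal libraries, with the members' median and quartiles (black) and those of the other oocyte-methylated tiles (blue). WT-Mat and Oocyte chose the members; in the other 6 libraries member medians lie between 58.4% and 100%, and the points spread over the whole scale.

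The means hide tiles of very different kinds. In CKO-Mat, 111 members (32.2%) lay at 60% or less in both libraries, against 2.55% of the other oocyte-methylated tiles. In CKO-Mat-Aphi, 51 members (14.8%) were that low, against 0.615% of the others, and in WT-Mat-Aphi 39 members (11.3%), against 0.551%. At the upper end, 167 members (48.4%) were at 75% or more in both CKO-Mat-Aphi libraries, 47 (13.6%) in CKO-Mat and 191 (55.4%) in WT-Mat-Aphi. The other tiles had 88.1% there in CKO-Mat-Aphi, 58.9% in CKO-Mat and 90.5% in WT-Mat-Aphi. Between the limits, or split between the replicates, were 127 members in CKO-Mat-Aphi, 187 in CKO-Mat and 115 in WT-Mat-Aphi.

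**Figure D2:**
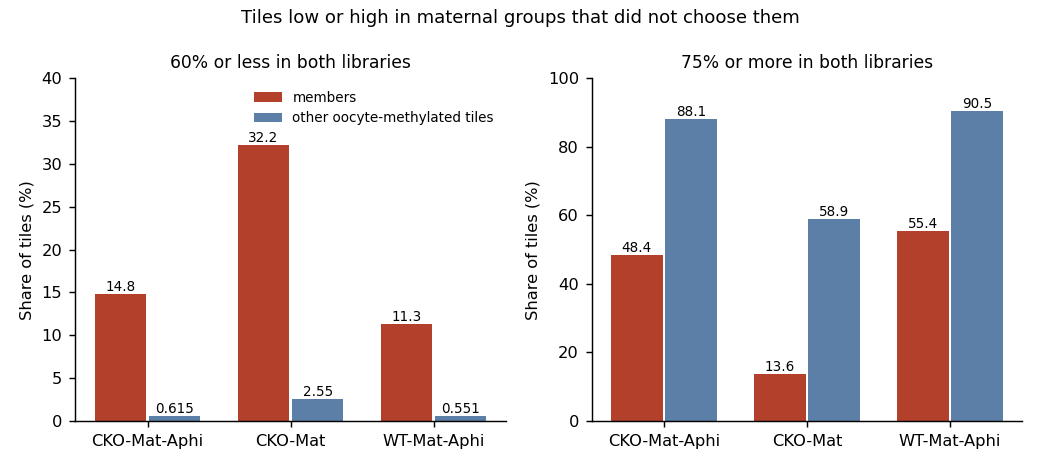
Share of tiles (%) at 60% or less in both libraries (left) and at 75% or more in both libraries (right), for members (red) and other oocyte-methylated tiles (blue), in the 3 maternal groups that did not choose the members. Members are low more often and high less often than the others in each group, and CKO-Mat has the largest low share, 32.2%.

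Counted over the 6 libraries, 75 members were above 60% in every one and 15 were at 60% or less in all 6. Most lay between, with 78, 73, 53, 29 and 22 members low in 1, 2, 3, 4 and 5 libraries. Among the other oocyte-methylated tiles, 5838 were low in none and 3 in all 6. A total of 131 members (38%) were at 75% or more in all 4 aphidicolin libraries, against 81.6% of the others. A total of 22 members (6.38%) were at 60% or less in all 4, against 0.102% of the others.

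Replicates of a group often disagreed at single members. The 2 libraries were more than 50 points apart at 48 members (13.9%) in CKO-Mat-Aphi, 43 (12.5%) in CKO-Mat and 51 (14.8%) in WT-Mat-Aphi. The same held for 2.36%, 4.97% and 1.72% of the other tiles in those groups. The median gap between replicates was 15.5, 23.4 and 7.27 points for members, against 0, 12.2 and 0 for the others. A tile-level difference therefore has to be read against a wide spread.

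The comparison of CKO-Mat-Aphi with CKO-Mat asks what blocked replication changes at these tiles when Tet3 is missing from the oocyte. Both groups stand outside the rule. The mean member level was 16.5 points higher in CKO-Mat-Aphi than in CKO-Mat, with the 4 differences between single libraries running from 14.1 to 18.9. The other oocyte-methylated tiles were 12 points higher, with library differences of 10.1 to 14. With 2 libraries against 2, an exact two-sided permutation test cannot go below 0.33, so no p is given. Without replicate 1 of CKO-Mat-Aphi, which stood apart at sperm-only tiles, its group is the single value of 76.3%, above both CKO-Mat libraries. Both CKO-Mat libraries stood apart there too, so the drug and the signal at sperm-only tiles cannot be told apart in this way.

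At single tiles, both CKO-Mat-Aphi libraries were above both CKO-Mat libraries, by at least 10 points in the mean, at 123 members (35.7%). The share was 36% of the other oocyte-methylated tiles and 6.47% of all tiles, so members did not stand out from oocyte-methylated tiles in this count. The reverse order held for 18 members (5.22%), against 1.08% of the others and 3.33% of all tiles. A quasi-binomial model per tile, with dispersion shrunk by limma and Benjamini-Hochberg adjustment over all 72072 tiles, called no member. Calls were limited to tiles at least 10 points apart with an adjusted p below 0.05. That is 0 members higher and 0 lower, where 0.0167% of all tiles were called higher and 0.00278% lower. At an unadjusted p under 0.05, 61 members (17.7%) were higher with aphidicolin, against 8.03% of the others and 1.87% of all tiles. At that limit 7 (2.03%) were lower, against 0.307% of the others and 0.597% of all tiles. Limma on arcsine square roots called 17 members higher and 2 lower, against 0.548% and 0.407% of all tiles. On simulated data with a wide spread between libraries, the quasi-binomial model called no changed tile and limma called more unchanged than changed ones, so a count of 0 does not show that members did not differ, and the limma counts are given as an alternative only.

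The lowest adjusted p of the quasi-binomial model among members, 0.201, was that of chr5:23980201-23980300 (mm9), which was read 7112 times over the maternal libraries. It stood at 96.3% and 99.9% in CKO-Mat-Aphi, against 100% and 49.2% in CKO-Mat. In WT-Mat-Aphi it had 100% and 97.0%, and in WT-Mat, which chose it, 38.5% and 58.8%. Only the second CKO-Mat library was low, so the CKO groups overlapped. The unadjusted p was 8.65e-05, although the first CKO-Mat library was as high as the aphidicolin libraries.

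**Figure D3:**
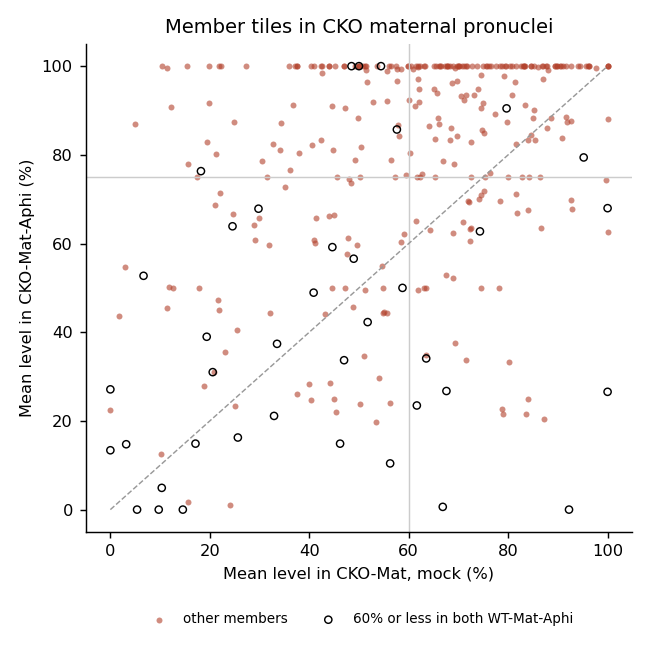
Each point is 1 of the 345 members, with its mean level in CKO-Mat (x axis, %) against its mean level in CKO-Mat-Aphi (y axis, %). Open circles are the 39 members at 60% or less in both WT-Mat-Aphi libraries, the dashed line marks equal levels and the grey lines mark 60% and 75%; most members lie above the dashed line, and the open circles are mostly at the low end of the y axis.

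Some members were low in both mock genotypes and high whenever replication was blocked. There were 22 of these (6.38%), at 60% or less in both CKO-Mat libraries and 75% or more in all 4 aphidicolin libraries. The other oocyte-methylated tiles held 97 (1.24%). Members were low in both CKO-Mat libraries more often to begin with, at 111 (32.2%) against 199 of the others (2.55%). The pattern thus held for 22 of 111 such members and for 97 of 199 such others. It was therefore less common among the CKO-Mat-low members than among the CKO-Mat-low others. The tile of greatest difference was chr17:35312101-35312200 (mm9). It stood at 100% and 100% in CKO-Mat-Aphi, against 0% and 20.6% in CKO-Mat. It had 100% and 100% in WT-Mat-Aphi, against 0% and 48.3% in WT-Mat, and 100% in both oocyte libraries. The mock and aphidicolin groups did not overlap, as the choice of the tile requires. The tile holds 2 read positions, and the first CKO-Mat library and the first WT-Mat library had 6 reads at each, none methylated, so both zeros rest on 12 calls. The unadjusted p was 0.00965 and the adjusted p of the quasi-binomial model was 1.

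A second tile of that kind, chr14:121310901-121311000, had 100% and 99.0% in CKO-Mat-Aphi, against 0% and 22.9% in CKO-Mat. It had 100% and 100% in WT-Mat-Aphi, against 30.3% and 27.0% in WT-Mat, and 92.5% and 77.3% in Oocyte. It was at 0% in both sperm libraries and in all 8 paternal libraries. The tile was thus methylated in oocytes and aphidicolin maternal pronuclei, partly or not in the mock ones, and in no paternal library. The unadjusted p of the quasi-binomial model was 0.00998, for the contrast by which the tile was ranked, and the model did not call the tile. Its smallest depth was 22 calls, in the second oocyte library.

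Further members of the kind lie on chromosomes 3 and 15. The adjacent members chr3:79353701-79353800 and chr3:79353801-79353900 form a run, and together stood at 90.7% and 100% in CKO-Mat-Aphi, against 0% and 31.9% in CKO-Mat. The run had 100% and 100% in WT-Mat-Aphi, against 55.9% and 50.1% in WT-Mat. The first tile of the run had an unadjusted p of 0.000974 and an adjusted p of 0.670. At chr15:39999301-39999400 the levels were 100% and 100% in CKO-Mat-Aphi, against 13.9% and 29.7% in CKO-Mat, and sperm held 55.6% and 47.0%. The sixth, chr14:64553701-64553800, had 100% and 100% in CKO-Mat-Aphi, against 12.8% and 31.6% in CKO-Mat. The depth per library at these tiles was as low as 30 calls. The gap between the CKO groups follows from how they were chosen, and so does a small unadjusted p at any tile of this kind.

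The comparison of CKO-Mat-Aphi with WT-Mat-Aphi asks what Tet3 changes when replication is blocked. The member means differed by -3.62 points, with library differences of -5.97 to -1.27, and the median member differed by 0. The other tiles differed by -0.847 points. All 4 library differences had the same sign at the members, and replicate 1 of CKO-Mat-Aphi was the lower of its pair. Both CKO-Mat-Aphi libraries were at least 10 points in the mean above both WT-Mat-Aphi libraries at 25 members (7.25%), against 2.11% of the others and 2.3% of all tiles. They were below at 41 members (11.9%), against 3.18% of the others and 2.04% of all tiles. The quasi-binomial model called 0 members in either direction, with 0.00278% of all tiles called higher and 0.00555% lower. At an unadjusted p under 0.05, 7 members (2.03%) were higher in CKO-Mat-Aphi, against 0.525% of the others and 0.738% of all tiles. At the same limit 16 (4.64%) were lower, against 1.05% of the others and 0.670% of all tiles. Limma on arcsine square roots called 2 higher and 2 lower, where it called 0.0555% and 0.0444% of all tiles. In the aphidicolin libraries 71.0% to 76.4% of the others stood at 100%, against 44.3% to 55.7% of members. Many of the others thus had no room for a gap of 10 points, and replicates of members were also farther apart. The members' higher shares in both directions are therefore given without a reading.

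The lowest adjusted p of that comparison among members, 0.204, was that of chr6:90686301-90686400 (mm9), also the most deeply read member with 9077 calls. It stood at 6.65% and 49.2% in CKO-Mat-Aphi, against 85.1% and 78.4% in WT-Mat-Aphi. It had 12.4% and 25.4% in CKO-Mat, against 21.5% and 54.7% in WT-Mat, and 98.5% and 97.2% in Oocyte. The aphidicolin groups did not overlap, and the unadjusted p was 4.26e-05. The tile is the first of the longest run, 3 members over chr6:90686301-90687000. The run averaged 10.5% and 16.4% in CKO-Mat-Aphi, 11.2% and 11.8% in CKO-Mat, 61.7% and 28.9% in WT-Mat-Aphi, 15.5% and 26.2% in WT-Mat, and 98.7% and 97.7% in Oocyte. Sperm was at 0.380% and 0.239%, so the run is methylated in the oocyte only. Its tiles differ: the second had 25% and 0% in CKO-Mat-Aphi and 100% and 0% in WT-Mat-Aphi. The third, chr6:90686901-90687000, was at 0% and 0% in CKO-Mat-Aphi and at 0% and 8.20% in WT-Mat-Aphi.

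At 15 members the level was 60% or less in all 8 pronuclear maternal libraries, so that neither genotype nor aphidicolin went with a high level there. They are 4.35% of members. Of the other oocyte-methylated tiles, 0.0384% were that low in the 6 libraries outside the rule. The member chr2:50844001-50844100 (mm9) stood at 0% and 0% in CKO-Mat-Aphi, 0% and 29.1% in CKO-Mat, 0% and 0% in WT-Mat-Aphi, 0% and 5.30% in WT-Mat, and 89.6% and 100% in Oocyte. It was read 3068 times, and its 3 positions behaved alike in CKO-Mat-Aphi. None of 30 reads per position in replicate 1 and none of 101 in replicate 2 was methylated there. They were not alike in every library: in the second WT-Mat library 21 of 132 reads were methylated at 1 position and none at the others. The sperm level of the tile was 67.6% and 62.3%. The member chr11:116244001-116244100 had 0% and 0% in CKO-Mat-Aphi, 13.1% and 6.35% in CKO-Mat, and 0% in all 4 WT libraries, against 78.6% and 81.8% in Oocyte. Sperm had 99.0% in both libraries there. Both tiles thus read as unmethylated in maternal pronuclei in which replication was blocked.

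Further members of this kind were chr6:121029001-121029100, with 26.8% and 0% in CKO-Mat-Aphi and 0% in both libraries of CKO-Mat and WT-Mat-Aphi, and chr5:135939401-135939500. The chr5 tile had 20.8% and 0% in CKO-Mat-Aphi, 59.4% and 53.1% in CKO-Mat, and 0% and 0% in WT-Mat-Aphi. It was therefore higher in the mock than in the aphidicolin libraries. The smallest depth in it was 24 calls.

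The 47 members at 75% or more in both CKO-Mat libraries are the reverse case, low in WT-Mat by the rule and high in mock CKO. In 29 of them (8.41% of members) all 4 aphidicolin libraries were high as well, against 50.5% of the other oocyte-methylated tiles. The tile chr9:109954601-109954700 (mm9) was such a case, with 100% and 100% in CKO-Mat-Aphi, 100% and 81.1% in CKO-Mat, 100% and 100% in WT-Mat-Aphi, and 2.38% and 25.6% in WT-Mat. The tile chr3:105489401-105489500 had 72.2% and 100% in CKO-Mat-Aphi, 87.1% and 88.5% in CKO-Mat, 78.1% and 87.1% in WT-Mat-Aphi, and 23.8% and 0% in WT-Mat. Among the maternal groups WT-Mat alone was low at both, as the rule required of it.

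The tile chr4:36303701-36303800 was low in WT-Mat and high in CKO-Mat by the way it was chosen, and CKO was the higher genotype with the drug as well. It had 58.8% and 100% in CKO-Mat-Aphi against 0% and 50.0% in WT-Mat-Aphi, and 90.4% and 100% in CKO-Mat against 0% and 3.68% in WT-Mat. Its unadjusted p in the aphidicolin comparison was 0.0190. At chr8:50340201-50340300 the treatment and the level went together in CKO instead, with 0% and 0% in CKO-Mat-Aphi, against 100% and 84.5% in CKO-Mat. That tile also had 0% in both WT-Mat-Aphi libraries and 100% and 86.8% in Oocyte, with as few as 10 calls in a library. The mean member difference of CKO-Mat from WT-Mat, 23.6 points against -2.11 points for the other tiles, has WT-Mat in it and is given without a reading.

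Members were at the low end of the scale more often than the other tiles and at the high end less often. In CKO-Mat-Aphi, 6.96% and 8.12% of members lay within 1 point of 0 and 45.2% and 51.6% within 1 point of 100. In WT-Mat-Aphi, 7.25% and 5.51% lay within 1 point of 0 and 56.2% and 54.5% within 1 point of 100. In CKO-Mat these shares were 6.38% and 6.09% near 0 and 11.9% and 14.8% near 100. Of the other oocyte-methylated tiles, at most 0.999% in any of these 6 libraries lay within 1 point of 0. Within 1 point of 100 were 75.3% and 81.8% of them in CKO-Mat-Aphi, 21.7% and 31.8% in CKO-Mat, and 81.7% and 80.1% in WT-Mat-Aphi. Read position by position, 16.2% to 20.7% of the positions in members were under 10% methylated in these libraries, against 2.53% to 6.20% of the positions in the others.

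Members and other tiles differed in oocyte level, depth and number of positions, and the gap was looked at within each. Of the members, 165 (47.8%) stood at 90% or more in both oocyte libraries, against 83.3% of the others. At those tiles the members averaged 83.5% ± 2.97 in CKO-Mat-Aphi, 63.5% ± 1.01 in CKO-Mat and 84.6% ± 0.0831 in WT-Mat-Aphi (SD, n = 2 each). The others there averaged 96.2%, 84.3% and 97.0%. Of the members, 124 (35.9%) had 2 positions in every library, and they averaged 80.2% in CKO-Mat-Aphi and 61.5% in CKO-Mat, against 95.8% and 81.0% for the others with 2. The 173 members at or above the members' median depth averaged 72.0% in CKO-Mat-Aphi and 56.3% in CKO-Mat, and the 172 below it 78.2% and 60.9%. Members were below the others in each of these divisions.

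Members methylated in sperm and members unmethylated in sperm also differed in the maternal libraries. Sperm stood at 75% or more in both libraries at 239 members (69.3%), at 25% or less at 72 (20.9%) and between at 32 (9.28%), and 2 members lacked a value in 1 of the sperm libraries. The 239 sperm-methylated members averaged 78.3% in CKO-Mat-Aphi, 61.1% in CKO-Mat and 81.6% in WT-Mat-Aphi. The 72 sperm-unmethylated members averaged 64.2%, 51.9% and 71.6% in those groups. The other oocyte-methylated tiles gave 96.3%, 83.9% and 96.4% where sperm was methylated and 90.8%, 80.5% and 94.5% where it was not. In CKO-Mat-Aphi the sperm-unmethylated class differed between replicates 1 and 2, with 61.8% and 66.5% for members and 87.2% and 94.4% for others. The gap between members and others was thus present in both classes. The signal at sperm-only tiles, up to 10.1% in CKO-Mat, went with genotype in the mock groups, and its part in these levels was not tested.

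**Figure D4:**
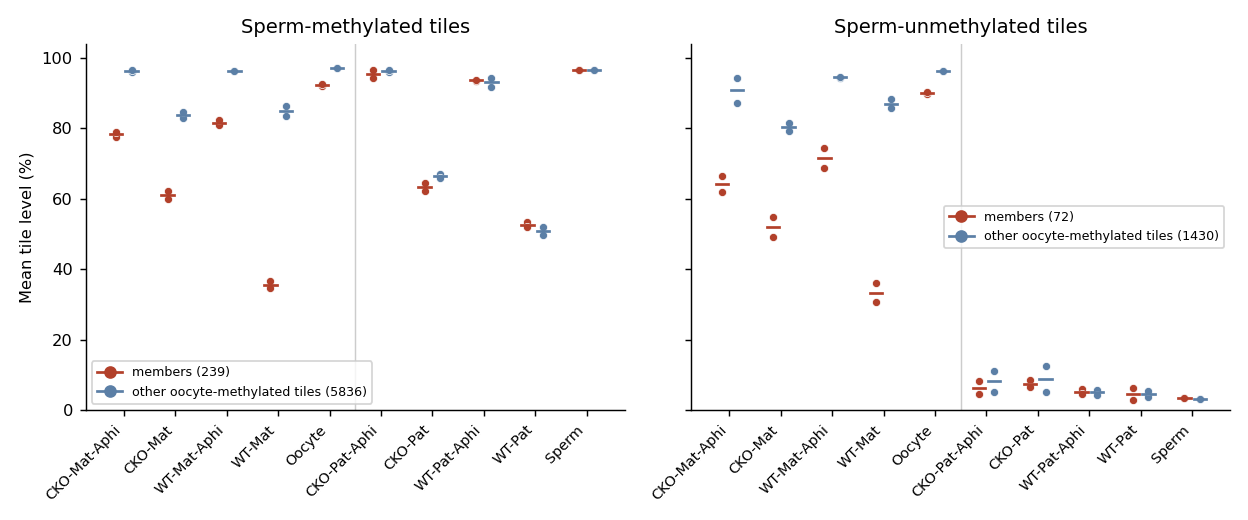
Mean tile level (%) in each of the 10 groups, maternal left of the grey line and paternal right of it, for tiles methylated in sperm (left panel) and unmethylated in sperm (right panel). Points are the 2 libraries and the short lines their mean; members (red) lie below the other oocyte-methylated tiles (blue) in every maternal group, and the 2 sets lie close together in every paternal group.

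On the paternal chromosomes members did not stand apart to the same degree. Member means were 71.0% ± 0.750 in CKO-Pat-Aphi, 48.6% ± 1.02 in CKO-Pat, 65.7% ± 2.39 in WT-Pat-Aphi, 38.9% ± 0.471 in WT-Pat and 72.9% ± 0.0828 in Sperm (SD, n = 2 each). The others averaged 76.0%, 54.0%, 68.3%, 39.5% and 76.4%. Members minus others was -5.41 points in CKO-Pat, the widest of the 5, and -0.546 points in WT-Pat, less than the spread between replicates there. At the 239 sperm-methylated members the means were 95.6% in CKO-Pat-Aphi, 63.3% in CKO-Pat, 93.7% in WT-Pat-Aphi, 52.7% in WT-Pat and 96.5% in Sperm. The others there had 96.3%, 66.6%, 93.2%, 50.9% and 96.6%. Not every member was measured in each paternal library.

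Few members had another member close by. They fell into 333 runs of tiles less than 500 bp apart, of which 10 held 2 members and 1 held 3, so 23 members were in a run. Only 44 members had a non-member oocyte-methylated tile within 500 bp. For most members, then, no measured tile nearby could have joined a run, and isolation is not read as a trait of the members. A run at chr2:135823501-135823700 had 99.2% and 100% in CKO-Mat-Aphi, against 65.2% and 28.4% in CKO-Mat. It had 100% and 100% in WT-Mat-Aphi, against 33.0% and 46.5% in WT-Mat. The run at chr14:78695801-78696100 had 85.7% and 76.6% in CKO-Mat-Aphi, 30.1% and 63.7% in CKO-Mat, 40.7% and 46.6% in WT-Mat-Aphi, and 0.226% and 0% in WT-Mat. In this last run CKO-Mat-Aphi was above WT-Mat-Aphi without overlap, and in the first both were at or near 100%.

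The 55 non-member oocyte-methylated tiles within 500 bp of a member, which lie near 44 of the members, had intermediate levels. They averaged 80.5% ± 8.59 in CKO-Mat-Aphi, 67.7% ± 2.76 in CKO-Mat, 84.1% ± 2.61 in WT-Mat-Aphi and 67.7% ± 2.15 in WT-Mat (SD, n = 2 each). The CKO-Mat-Aphi libraries differed there, with 74.4% in replicate 1, the library that stood apart, and 86.5% in replicate 2. The 7752 oocyte-methylated tiles farther away averaged 95.2%, 83.2%, 96.0% and 85.3%. In CKO-Mat the neighbours differed from the tiles farther away by -15.5 points. The 36 adjacent tiles had 81.5% in CKO-Mat-Aphi, 68.8% in CKO-Mat and 82.2% in WT-Mat-Aphi, and the 47 tiles at 1100 to 5000 bp had 90.7%, 80.6% and 90.6%. The bins between them held 11, 8 and 5 tiles, too few to read. The low level was therefore not limited to the 100 bp of the member, and at adjacent tiles it was less deep. Adjacent tiles can be read by the same fragments.

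**Figure D5:**
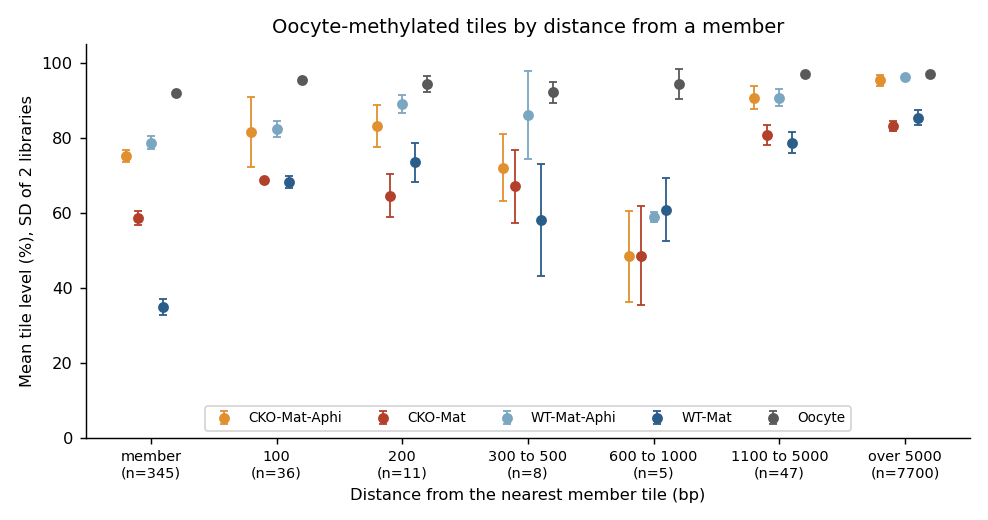
Mean level (%) of oocyte-methylated tiles in the 5 maternal groups by distance from the nearest member tile (bp), with the SD of 2 libraries as error bars and the number of tiles under each bin. The adjacent tiles lie between the members and the 7700 tiles over 5000 bp away; the bins of 11, 8 and 5 tiles scatter widely.

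Members were spread over all 19 autosomes. Their share of the oocyte-methylated tiles was highest on chromosomes 18 (9.77%), 6 (9.17%), 3 (7.77%) and 14 (7.58%) and lowest on chromosomes 5 (1.95%) and 13 (2.20%). Neighbouring tiles are counted singly in these shares, such as the run of 3 among the 31 members on chromosome 6. Shares without the runs were not computed. Genes at the members are not named, because the coordinates are those of mm9 and an annotation of that build was not used here.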

How the data were processed

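The study profiled mouse gametes and hand-isolated pronuclei by reduced representation bisulfite sequencing. Bismark 0.10.1, Trim Galore and the mm9 build are listed in the submitters' processing notes. Which read filters were applied, and whether duplicates were removed, was not given in the sources used here. The files as deposited by the authors list, per CpG position, counts of methylated and unmethylated calls and the percent methylated, with no header and no normalisation. The labels gave each library's group and replicate number.

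Positions with at least 5 reads were summed into 100-bp tiles. A tile needed at least 2 positions and 10 calls in each maternal library, and its level is the methylated share of its calls. Group means weight tiles equally. Tiles were tested with a quasi-binomial model with 1 level per group, its dispersion taken from groups expecting at least 5 calls of both kinds in every library, trended on depth, shrunk with squeezeVar of limma 3.58.1 and floored at 1 afterwards. P-values were adjusted by Benjamini-Hochberg over all tiles, and both models were tested on simulated data. With a narrow spread between libraries the quasi-binomial model called most tiles changed by the larger steps and few unchanged ones. With a wide spread it called none of the changed tiles, and limma, run on that spread alone, called more unchanged than changed tiles. No intervals are given. Each ± value is the SD between the 2 libraries of a group, and a zero means no methylated call among those counted.

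The members, the lists of tiles and the model were chosen with earlier results of these data known. Tiles were named by rank: the first 5 runs, the first 6 low in CKO-Mat and high in all aphidicolin libraries by difference, the first 5 low in all 8 by aphidicolin level, the first 4 high in CKO-Mat by lowest WT-Mat level, the 3 of most calls, and those nearest each limit. Named tiles on chromosome 18 are not described. Alternatives were other limits, read minimums, tile widths, weights, dispersion rules, limma on arcsine square roots, a replicate block, each library left out, and sperm-methylated tiles alone.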

Additional observations from a re-analysis of the deposited data

How the results depend on the processing

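Of 96 alternative values, 63 stayed within the spread between replicates or within 1.5 times the count, and 33 moved. A change of sign was looked for in the neighbour difference alone, where none occurred. Leaving out members over 10 times the median depth, also among the alternatives, removed 0 members, so its values had to stay. For CKO-Mat-Aphi against CKO-Mat, 38 members were called higher when the dispersion was floored before shrinkage, of 884 tiles higher in all. With that setting 4 members were called lower. Lower calls were not counted over all tiles there, so the 4 have no background beside them. Limma called 17 members higher and 2 lower, of 395 tiles higher and 293 lower in all. For CKO-Mat-Aphi against WT-Mat-Aphi, in both directions, 4 members were called with limma (72 tiles in all) and 1 with 200-bp tiles (34 in all). Flooring the dispersion first called 0 there. Over the 8152 oocyte-methylated tiles, same-numbered libraries deviated with a correlation of -0.00384 between CKO-Mat-Aphi and CKO-Mat. Between CKO-Mat-Aphi and WT-Mat-Aphi it was -0.0287. Most of these tiles stood at 100% in each aphidicolin library, so the correlations cannot show whether same-numbered libraries shared a batch. With a replicate block, 2 members of 28 tiles in all were called higher in the first comparison and 0 members of 32 tiles in the second.

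Other limits moved the levels. With WT-Mat at 50% or less (191 members), the means were 70.4% in CKO-Mat-Aphi, 54.6% in CKO-Mat and 74.1% in WT-Mat-Aphi, and the shares at 60% or less 21.5%, 37.7% and 16.2%. With Oocyte at 90% or more, the means were 83.5%, 63.5% and 84.6%, and the shares 7.88%, 25.5% and 6.06%. With sperm-methylated tiles alone, chosen after seeing the data, the means were 78.3%, 61.1% and 81.6%, and neighbours lay -10.8 points from the rest. With a library left out, a share rests on 1 library in its group and so is higher: 25.5% to 29.3% in CKO-Mat-Aphi, 48.4% to 52.8% in CKO-Mat and 22% to 24.6% in WT-Mat-Aphi. Members not overlapping between the aphidicolin groups then made up 33.3% to 37.1%, against 19.1% with all libraries. Non-overlap is easier to meet with 1 library in a group. The share among other tiles was not computed for that setting, so nothing is read from it. Few pronuclei per library and 2 libraries per group limit every tile-level statement.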
